A study of Drosophila melanogaster with 3 samples.

Results

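The transcripts of fat bodies with knockdown of hpo (Dcg>Hpo-Ri) were compared with those of control fat bodies (Dcg/+), gene by gene, over the whole table of 16509 gene rows. All rows with at least 50 counts in either library were taken as measured, without regard to their change. This left 8761 genes, 53.1% of the rows, which held 99.7% of the counts of each library. The remaining 7748 genes had under 50 counts in both. Dcg>Hpo-Ri animals carried the driver Dcg-Gal4, which is active in the fat body, together with an RNAi transgene against hpo, and Dcg/+ animals carried the driver alone. In the same study another library came from Dcg>Hpo animals, which overexpress hpo with the same driver, and its counts are set beside those of the other libraries only where they help to place a gene. Each genotype had 1 library, made from pooled tissue of Drosophila melanogaster larvae, so no test between genotypes was possible and every interval below covers counting error only.

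The Hippo pathway is a chain of kinases that restrains growth. The kinase Hippo, the product of hpo, acts with Salvador on the kinase Warts, Warts phosphorylates the coactivator Yorkie and keeps it out of the nucleus, and free Yorkie joins the DNA-binding protein Scalloped to switch on growth genes. The larval fat body is the fly's store of fat and glycogen and its main source of blood proteins, and it is also the organ that senses amino acids and secretes antimicrobial peptides. At the end of larval life it answers to ecdysone, the steroid hormone that times moulting and the onset of metamorphosis.

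The libraries had similar depth, with 23524682 counts in Dcg>Hpo-Ri, 23227940 in Dcg>Hpo and 21918672 in Dcg/+. The 10 most abundant genes took 38.3% of the counts in Dcg>Hpo-Ri and 36.7% in Dcg/+, and 3548 and 3201 genes in that order had no count. Lsp1beta, which encodes a serum storage protein of the larva, was the most abundant transcript on both sides, with 2063983 counts in Dcg>Hpo-Ri and 1612401 in Dcg/+. Storage proteins and lipoproteins of the fat body together held 18.4% of the counts in Dcg>Hpo-Ri and 18.8% in Dcg/+, and larval fat body is the tissue named by the study, although the extraction protocol among the labels speaks of adult heads. Rows annotated as ribosomal RNA or its pseudogenes, 109 in all, held 4.88% in Dcg>Hpo-Ri and 2.47% in Dcg/+. Genes of other tissues were present in both libraries, and their levels are given with each group below.

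Counts were scaled to library totals, and the ratio of Dcg>Hpo-Ri over Dcg/+ carries an exact 95% interval (Clopper-Pearson, from the split of the counts between both libraries). A call required an interval that excluded 1, with a ratio of at least 2 for higher genes and at most 0.5 for lower ones. Where a library had no count, a floor of 3 counts gives a lower bound of the fold. By library totals 458 of 8761 genes were called higher (5.23%) and 520 lower (5.94%). With TMM scaling, which multiplied every ratio by 0.940 (a shift of -0.09 on the log2 scale), 376 were called higher (4.29%) and 624 lower (7.12%). These are the shares against which the count of each gene group below is set. Higher calls therefore made up 46.8% of all calls by library totals and 37.6% by TMM. All 376 TMM calls in the higher direction and all 520 total-scaled calls in the lower direction were made under both scalings, and the difference between the scalings lay in 82 genes called higher by totals alone and 104 called lower by TMM alone. The median log2 ratio of all measured genes was 0.10 by library totals, which TMM moves close to 0.

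hpo itself (chromosome 2R of the build dm6, 19493996 to 19496856) had 182 counts in Dcg>Hpo-Ri, 11568 in Dcg>Hpo and 289 in Dcg/+. The ratio of Dcg>Hpo-Ri over Dcg/+ was 0.587 (0.485 to 0.709). It lay below the control beyond counting error but did not reach the 2-fold threshold under either scaling. Its gene overlaps another annotated gene, so its counts could include reads of that neighbour. Of 20 measured Hippo pathway genes, 2 were called higher and 1 lower, numbers close to the shares over all genes (5.23% higher and 5.94% lower). The median log2 ratio of the list was 0.31, against 0.10 for all genes. The atypical cadherin ft, a receptor that feeds into Hippo, had 74 counts in Dcg>Hpo-Ri and 9 in Dcg/+, a ratio of 7.66 (3.82 to 17.4). fj, a Golgi kinase that modifies Fat and its partner, had 69 and 18 counts, a ratio of 3.57 (2.10 to 6.38). yki, the coactivator that the pathway restrains, had 75 and 175 counts, a ratio of 0.399 (0.301 to 0.526). The kinase gene wts was at 1.31 (1.15 to 1.48) and sd, the partner of Yorkie, at 1.60, both short of a call. Among Yorkie targets 2 of 12 were called higher, fj and the Notch ligand gene Ser with 51 counts in Dcg>Hpo-Ri and 22 in Dcg/+. The growth gene dm, the fly Myc gene, was at 1.32 (1.18 to 1.47), the apoptosis inhibitor th at 0.944 (0.871 to 1.02), and the cyclin gene CycE at 0.508 (0.340 to 0.750), which TMM scaling carries over the threshold.

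The called genes were few in number but not small in mass. Genes called lower held 0.624% of the counts in Dcg>Hpo-Ri and 7.86% in Dcg/+, most of it from the salivary gland genes described below. Genes called higher held 7.04% in Dcg>Hpo-Ri and 3.06% in Dcg/+. A change of 10-fold or more was reached by 52 genes in the higher direction and by 82 in the lower, and one of 100-fold or more by 12 and 34 genes in the same order. Both tallies include all genes without a count in 1 library, 8 higher and 16 lower. The bounds of some of these, such as CG7924, lie under 100-fold. Most calls were modest, with 294 of the higher genes and 272 of the lower ones between 2 and 3-fold. Just outside the threshold, 204 genes had a ratio of 1.8 to 2 and 173 an inverse ratio of that size, against 110 and 90 genes between 2 and 2.2-fold, so the count of calls moves with small shifts of scaling. Likewise, 208 genes entered with 50 to 54 counts in their higher library and 242 were left out with 45 to 49.

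Calls were commonest among rare transcripts. Measured genes were sorted by their mean over both libraries into 4 classes, in CPM, the usual unit of counts scaled to a common library total. Since the kit reads 1 end of each transcript, these levels do not scale with transcript length. Under 10 CPM, 4464 genes held 2.20% of the counts in Dcg>Hpo-Ri and 2.14% in Dcg/+, and 14.5% of them were called, 299 higher and 349 lower. From 10 to 100 CPM, 7.71% of 3566 genes were called, 139 higher and 136 lower. From 100 to 1000 CPM it was 7.51% of 599 genes, 17 higher and 28 lower, and at 1000 CPM or more 7.58% of 132 genes, 3 higher and 7 lower. The abundant class held 70.1% of the counts in Dcg>Hpo-Ri and 71.2% in Dcg/+.

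The filter itself shaped the rarest class. Of its 299 higher genes, 216 had under 50 counts in Dcg/+, and of its 349 lower genes, 254 had under 50 counts in Dcg>Hpo-Ri. Such genes were measured only through the library in which they were high, so their share of calls is no evidence that rare genes changed more. The same limit holds for the calls of such genes in the groups below. Across the other 3 classes the share called was nearly level, between 7.51% and 7.71%. The spread of the ratios narrowed with abundance, the median absolute log2 ratio being 0.40, 0.31, 0.29 and 0.25 from the rarest class to the most abundant. The upper tail narrowed most, its 95th percentile standing at 1.16 under 10 CPM and at 0.65 at 1000 CPM or more, while the 5th percentile was at -1.31 and -1.04 in the same order.

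**Figure D1:**
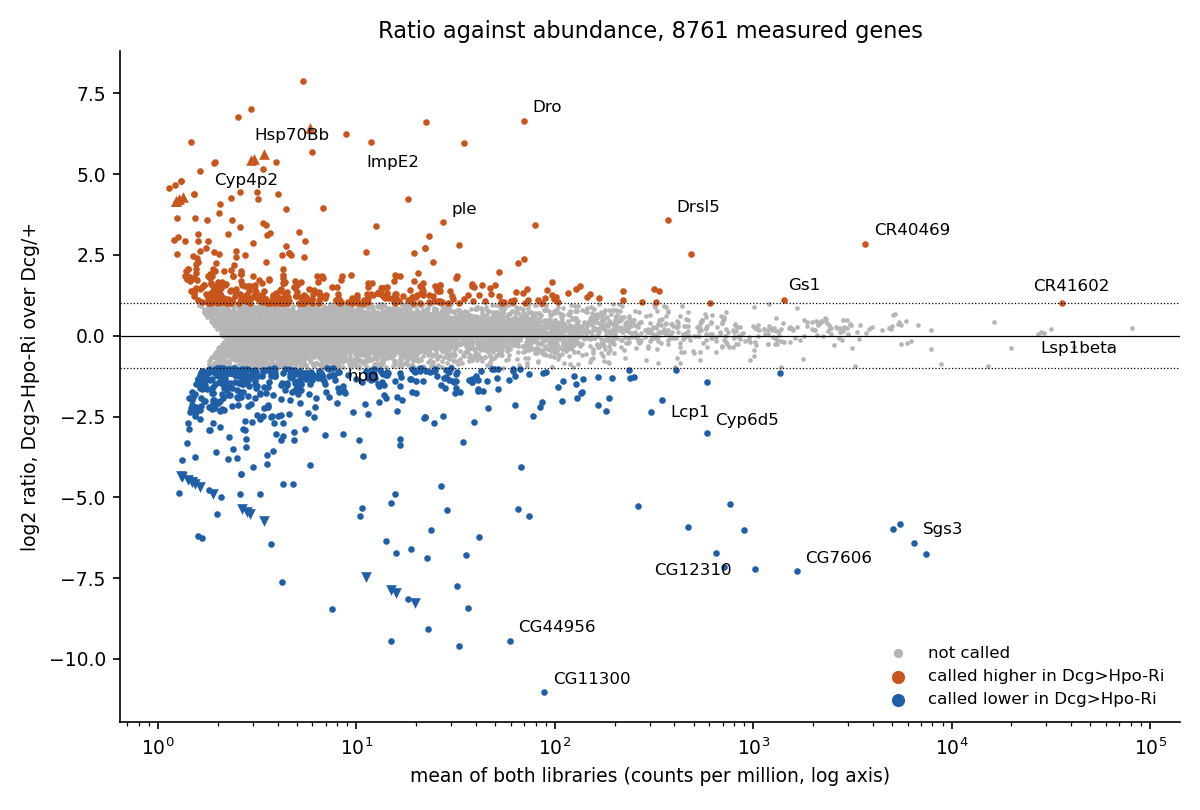
The log2 ratio of Dcg>Hpo-Ri over Dcg/+ (library totals) against the mean of both libraries in CPM (log axis) for the 8761 measured genes. Orange points mark the 458 genes called higher and blue points the 520 called lower, dotted lines mark 2-fold, and triangles mark genes without a count in 1 library, drawn at the bound that 3 counts give. A band of abundant lower genes, the salivary gland genes, stands far below the other genes of its abundance.

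**Figure D2:**
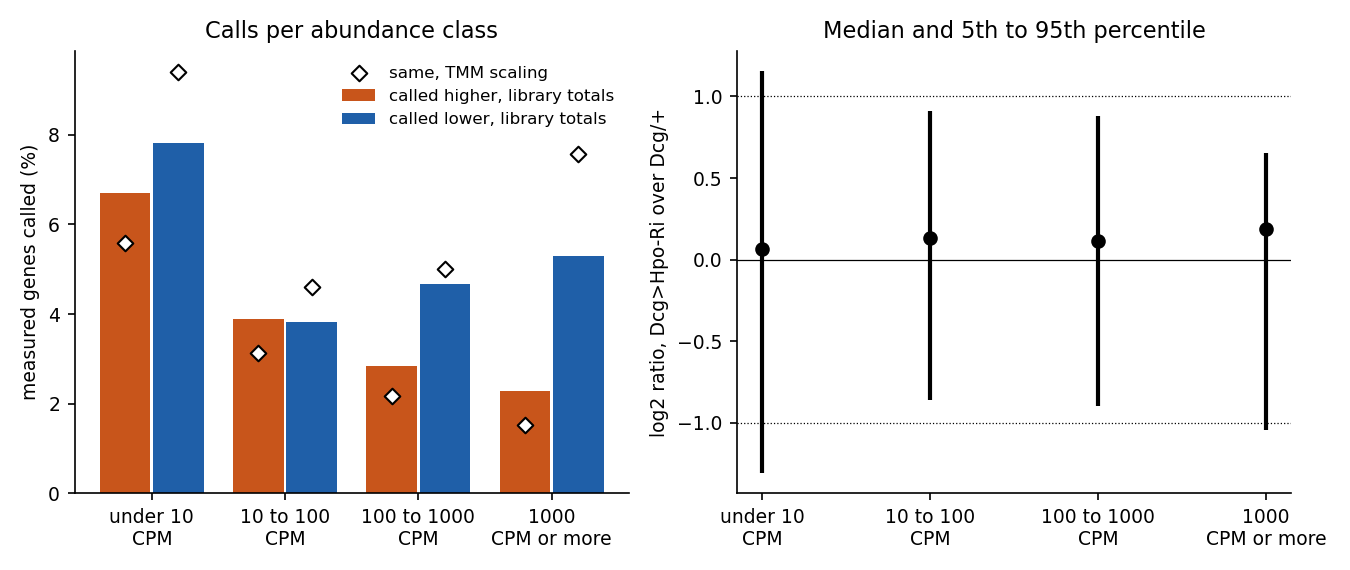
Left, the percentage of measured genes called higher (orange) or lower (blue) in Dcg>Hpo-Ri in each abundance class, with diamonds for TMM scaling. Right, the median log2 ratio (point) and its 5th to 95th percentile (line) in each class. The rarest class has the largest share of calls, 14.5%, and the others lie between 7.51% and 7.71%.

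At 1000 CPM or more, the 3 higher genes were a long noncoding RNA, an enzyme gene and a ribosomal RNA pseudogene. CR40469, annotated as lncRNA on the X chromosome (122493 to 122706), had 151903 counts in Dcg>Hpo-Ri and 19597 in Dcg/+, a ratio of 7.22 (7.12 to 7.33). Gs1, a glutamine synthetase, had 45629 and 19890 counts, a ratio of 2.14 (2.10 to 2.17). The pseudogene CR41602 of the 18S ribosomal RNA had 1132664 and 523751 counts, a ratio of 2.01 (2.01 to 2.02), and under TMM scaling it fell below the threshold, at 1.89. It alone took most of the ribosomal share given above. The 7 lower genes of this class were Sgs3, Sgs5, Sgs7, Sgs8, CG7606, CG12310 and the antifungal peptide gene Drs.

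From 100 to 1000 CPM, the leading higher gene was Drsl5, a relative of Drs, with 16192 counts in Dcg>Hpo-Ri and 1265 in Dcg/+, a ratio of 11.9 (11.3 to 12.6). CG43166, which RefSeq lists as a long noncoding RNA, followed with 19398 and 3128 counts, then CR44404, listed as IBIN, with 4702 and 1495, CG15210 with 10825 and 3697, and the histone gene His2B:CG33894 with 4382 and 1504. The lower genes reached much larger folds. CG7587, listed as Sgs5bis, had 233 counts in Dcg>Hpo-Ri and 31000 in Dcg/+, Eig71Ee 287 and 28185, Sgs4 640 and 38826, CG42460 354 and 20141, and CG31698 950 and 32487. Their ratios ran from 0.00700 for CG7587 to 0.0272 for CG31698.

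From 10 to 100 CPM the leading higher genes were Dro, which encodes the antibacterial peptide drosocin, CG32073, CG34436, ImpE2 and CG34244. CG32073 (chromosome 3L, 11107008 to 11107582) had 1049 counts in Dcg>Hpo-Ri and 10 in Dcg/+, a ratio of 97.7 (52.9 to 204). CG34436 (3R, 28282580 to 28283548) had 1622 and 24 counts, a ratio of 63.0 (42.2 to 98.6). In the lower direction 3 genes were nearly absent from Dcg>Hpo-Ri. CG11300 (2R, 23751915 to 23752495) had 2 counts there and 3878 in Dcg/+, CG44956, listed as Sgsf, had 4 and 2592, and CG13460 had 2 and 1446. CG10918 and CG14265 had no count in Dcg>Hpo-Ri and 869 and 695 in Dcg/+, so they were at least 311-fold and 249-fold lower.

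Under 10 CPM the leading genes were present in 1 library and nearly absent from the other. CG7924 had 275 counts in Dcg>Hpo-Ri and none in Dcg/+, at least 85.4-fold higher, and it lies next to CG34244. CG12522 had 252 counts and 1, and it lies next to CG32073 on 3L (11108235 to 11108732). CG2016, listed as the juvenile hormone binding protein Jhbp2, had 160 counts and none, and Cyp4p2, a cytochrome P450, had 139 and none. CG12115 had 143 in Dcg>Hpo-Ri, 991 in Dcg>Hpo and none in Dcg/+. In the lower direction CG34276 had 1 count in Dcg>Hpo-Ri and 328 in Dcg/+, CG42779 had 1 and 184, and CG17362, CG17134 and CG7402 had none against 150, 128 and 123. Since CG7402 had only 2 counts in Dcg>Hpo as well, it was high in the control library alone.

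The genes of the larval salivary gland were the largest block of lower transcripts. Glue proteins fix the pupa to its substrate and are made by this gland under ecdysone in the last larval stage. In the salivary gland list, 13 of the 15 genes measured were called lower and 0 higher (background 5.94% and 5.23%), and TMM scaling added 1 lower. The list held 0.0735% of the counts in Dcg>Hpo-Ri (exact 95% interval 0.0724% to 0.0746%), against 5.30% (5.29% to 5.31%) in Dcg/+, a ratio of the sums of 0.0139. Its median log2 ratio was -6.41, or -6.02 with the 2 members without a count in Dcg>Hpo-Ri at their bound. In bulk tissue, fewer cells of a type and less RNA per cell cannot be told apart.

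The glue genes lay close together. Sgs8 had 4434 counts in Dcg>Hpo-Ri and 235091 in Dcg/+, a ratio of 0.0176 (0.0171 to 0.0181). Sgs5 had 3731 and 218437 counts, a ratio of 0.0159 (0.0154 to 0.0164), and Sgs1 had 26 and 1802, a ratio of 0.0134 (0.00876 to 0.0198). Every Sgs gene measured thus stood between 0.00700, for Sgs5bis, and 0.0176, apart from the rarer CG44956 (Sgsf) at 0.00144 (0.000391 to 0.00369). CG13560, another member, had 3 counts in Dcg>Hpo-Ri and 790 in Dcg/+. The regulators of the gland moved less than its products. sage, a bHLH factor of this gland, had 36 and 441 counts, a ratio of 0.0761 (0.0526 to 0.107), fkh, a forkhead factor shared with other organs, was at 0.521 (0.447 to 0.606) and 0.489 with TMM, and CrebA, a factor of secretory cells in general, at 0.957 (0.866 to 1.06). In Dcg>Hpo the list held 2.61% of the counts, so these genes were abundant in 2 of the 3 libraries.

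The surroundings of 5 such genes, chosen because these genes were lower, are given as a description. Within 25 kb of Sgs4 on the X chromosome, 6 of 6 measured genes were called lower, Sgs4 included (background 5.94%), among them Pig1 with 15 counts in Dcg>Hpo-Ri and 1546 in Dcg/+, ng3 with 9 and 990, and ng2 with 0 and 71. The large gene dnc, a phosphodiesterase gene whose transcription unit spans this cluster, had 174 and 349 counts, a ratio of 0.465 (0.385 to 0.559). Around Sgs5 on 3R, 3 of 4 measured genes were lower, and CG7606 (17596536 to 17598453) had 497 counts in Dcg>Hpo-Ri and 72238 in Dcg/+, a ratio of 0.00641 (0.00586 to 0.00700). Around Eig71Ee on 3L, which lies in an ecdysone puff at 71E, it was 5 of 5, including Eig71Ea with 10 and 146 counts, CG43083 with 10 and 447, and Eig71Eg with 19 and 164. Around Sgs3, 4 of 8 were lower, the glue genes themselves and the small gene CG11714, while chrb and Mob2 stood at 0.969 (0.770 to 1.22) and 0.960 (0.889 to 1.04). Around Sgs1, 3 of 13 were lower, Sgs1, hoe2 and the protease gene Jon25Biii, and 2 neighbours of the same protease family, Jon25Bi and Jon25Bii, were higher. These counts include the central gene and other glue genes. Without the central gene, 5 of 5 measured genes were lower around Sgs4, 2 of 3 around Sgs5, 4 of 4 around Eig71Ee, 3 of 7 around Sgs3 and 2 of 12 around Sgs1.

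**Figure D3:**
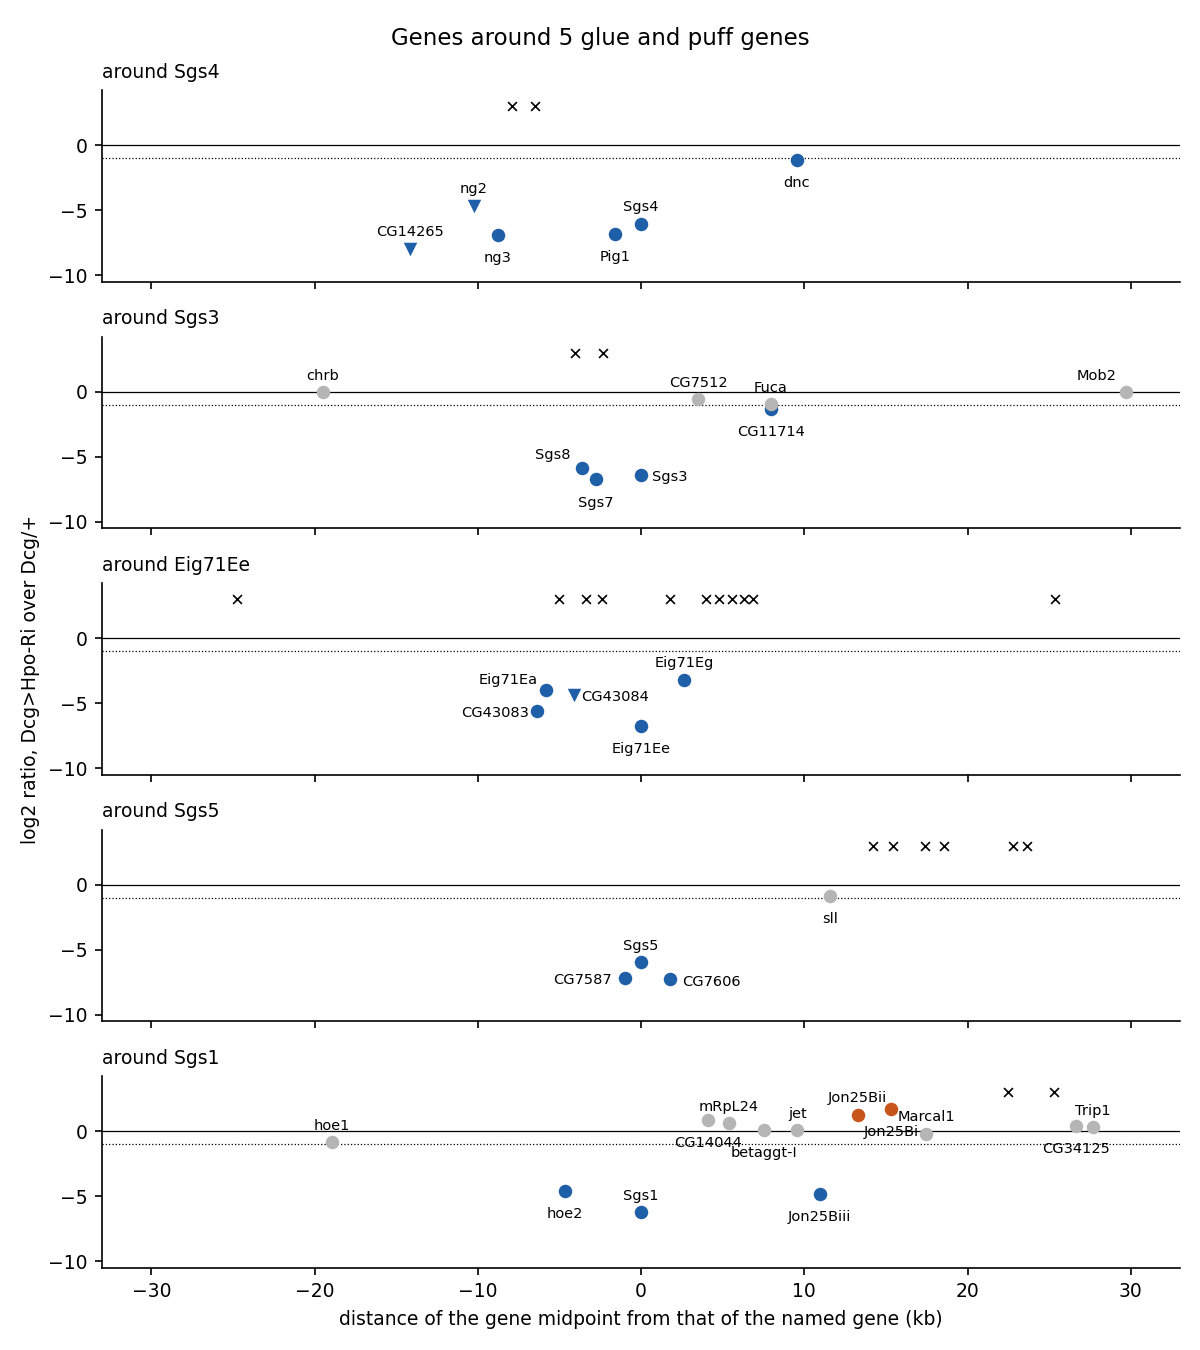
The log2 ratio of Dcg>Hpo-Ri over Dcg/+ for genes within 25 kb of 5 salivary gland or puff genes, by the distance between gene midpoints in kb. Blue points were called lower, orange higher and grey not called, triangles are bounds for genes without a count in Dcg>Hpo-Ri, and crosses along the top mark genes under 50 counts in both libraries. Counting the central gene, all 6 measured genes around Sgs4 and all 5 around Eig71Ee were called lower, as were 3 of 13 around Sgs1.

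Runs of neighbours called in 1 direction were found at 13 places, 7 higher and 6 lower, with 29 and 30 genes. A run was taken as 4 or more measured genes next to each other. Besides the windows above, a lower run on 3L (15050263 to 15061705) held CG12310, CG43679, CG13461, CG18649 and CG13460, with 402 counts in Dcg>Hpo-Ri and 49466 in Dcg/+ together, of which CG12310 gave 321 and 44188. Another on 3R (17395199 to 17407534) ran from Sur-8, with 705 and 3030 counts, to CG42798, with 31 and 1226, and held CG42823, which had no count in Dcg>Hpo-Ri or Dcg>Hpo and 490 in Dcg/+. One more on 3R (19489570 to 19615784) held CG15025, CG7342, CG17751, CG17752 and CG16727, at ratios of 0.107 to 0.475, and one on 2R (8430115 to 8438495) held the larval cuticle protein genes Lcp1 to Lcp4, with 6173 counts in Dcg>Hpo-Ri and 25349 in Dcg/+ together. The higher runs were 3 groups of histone genes on 2L, the trypsin genes on 2R, the lysozyme genes and a group around CG7924 on 3L, and the Hsp70 genes on 3R. Around CG7924, a run from 14233469 to 14368639 held CG34244, CG7906 and fz, the Frizzled receptor gene, with 1284 counts in Dcg>Hpo-Ri and 72 in Dcg/+. The genes of several runs overlap each other, and in the histone and trypsin runs some rows share all their counts, so neighbours are not independent measurements.

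In the lists of lipid synthesis, lipid droplets and fatty acid oxidation every call was lower, and most calls fell on synthesis. Fatty acid and triglyceride synthesis had 6 genes called lower and 0 called higher of 24 (background 5.94% and 5.23%), and the list held 0.0825% of the counts in Dcg>Hpo-Ri and 0.130% in Dcg/+. CG3523, the fatty acid synthase FASN1, had 549 counts in Dcg>Hpo-Ri and 2874 in Dcg/+, a ratio of 0.178 (0.162 to 0.195). Men, the malic enzyme that supplies NADPH to it, had 788 and 3031 counts, a ratio of 0.242 (0.224 to 0.262), and Pgd, an NADPH-producing enzyme of the pentose phosphate pathway, had 208 and 644, a ratio of 0.301 (0.256 to 0.352). AcCoAS, which makes acetyl-CoA from acetate, had 1848 and 4324 counts, and mdy, which adds the last acyl chain of a triglyceride, 259 and 632. HLH106, the fly SREBP that activates lipid synthesis genes, had 203 and 495, a ratio of 0.382 (0.323 to 0.451).

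Other enzymes of the same chain were near the control. ACC, the carboxylase just upstream of the synthase, was at 0.946 (0.739 to 1.21), ATPCL, which makes acetyl-CoA from citrate, at 0.964 (0.901 to 1.03), and Zw, the partner of Pgd in the pentose pathway, at 1.14. Desat1, the main desaturase, was at 0.540 (0.510 to 0.571), short of a call. The list's median log2 ratio was -0.26. In Dcg>Hpo, CG3523 had 5124 counts and Men 2342.

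Genes of fat use had 3 calls, all lower, close to the background of 5.94%. Of 13 lipid droplet and lipolysis genes only AkhR, the receptor of the fat-mobilizing hormone Akh, was called, with 393 counts in Dcg>Hpo-Ri and 993 in Dcg/+, a ratio of 0.369 (0.327 to 0.415). The triglyceride lipase bmm was at 0.641 (0.556 to 0.737), and the perilipins Lsd-1 and Lsd-2 were at 0.621 (0.603 to 0.639) and 1.22 (1.18 to 1.27). The lipase gene CG5966 was at 1.71 (1.63 to 1.81). Of 25 genes of fatty acid oxidation, 2 were called lower, CG4594 with 27 and 162 counts and CG3902 with 95 and 290. The summed ratio of the list was 1.01, and CG4594 passed the filter only through Dcg/+. The trifunctional enzyme gene Mtpalpha was at 0.877 (0.846 to 0.909).

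In the sugar lists all calls were lower. Among 20 glycolysis and lactate genes 2 were called lower and 0 higher (background 5.94% and 5.23%), and the list held 0.533% of the counts in Dcg>Hpo-Ri and 0.530% in Dcg/+. The called genes were Pepck, which starts glucose synthesis from oxaloacetate, with 1488 counts in Dcg>Hpo-Ri and 4630 in Dcg/+, a ratio of 0.299 (0.282 to 0.318), and CG1516, the pyruvate carboxylase, with 3608 and 6970, a ratio of 0.482 (0.463 to 0.502). CG10924, the neighbouring paralogue of Pepck, had far more counts than Pepck, 55423 and 40995, and was not called, at 1.26 (1.24 to 1.28). Among 15 genes of glycogen, trehalose and sugar handling 2 were lower and 0 higher. AGBE, the glycogen branching enzyme, had 135 and 343 counts, a ratio of 0.367 (0.298 to 0.449), and CG5177 had 38 and 71, at the very threshold with a ratio of 0.499 (0.327 to 0.750). The glycogen synthase GlyS and phosphorylase GlyP were at 0.605 (0.458 to 0.796) and 0.549 (0.446 to 0.673). The respiratory chain gave no call in 88 genes, with a median log2 ratio of 0.04.

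Amino acid and one-carbon metabolism had calls in both directions, 3 higher and 4 lower of 28 (background 5.23% and 5.94%). The higher genes make glutamine or act on folate intermediates. Gs2, the second glutamine synthetase, had 492 counts in Dcg>Hpo-Ri and 223 in Dcg/+, a ratio of 2.06 (1.75 to 2.42) and 1.93 with TMM, and Nmdmc, a mitochondrial folate enzyme, had 1989 and 862, a ratio of 2.15 (1.98 to 2.33). Among the lower genes, CG6188, the glycine methyltransferase Gnmt, had 588 and 1718 counts, a ratio of 0.319 (0.290 to 0.350), and Sam-S, which makes the methyl donor that Gnmt uses, had 745 and 1407, a ratio of 0.493 (0.451 to 0.540). P5CDh1, which breaks down proline, had 22 and 90. Outside the list, P5cr-2, which completes proline synthesis, had 8701 counts in Dcg>Hpo-Ri and 3930 in Dcg/+ (1.94 with TMM, short of a call), the purine enzyme AdSL had 5419 and 2233, and CG3714, the nicotinate phosphoribosyltransferase Naprt, had 2764 and 496, a ratio of 5.19 (4.72 to 5.72).

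**Figure D4:**
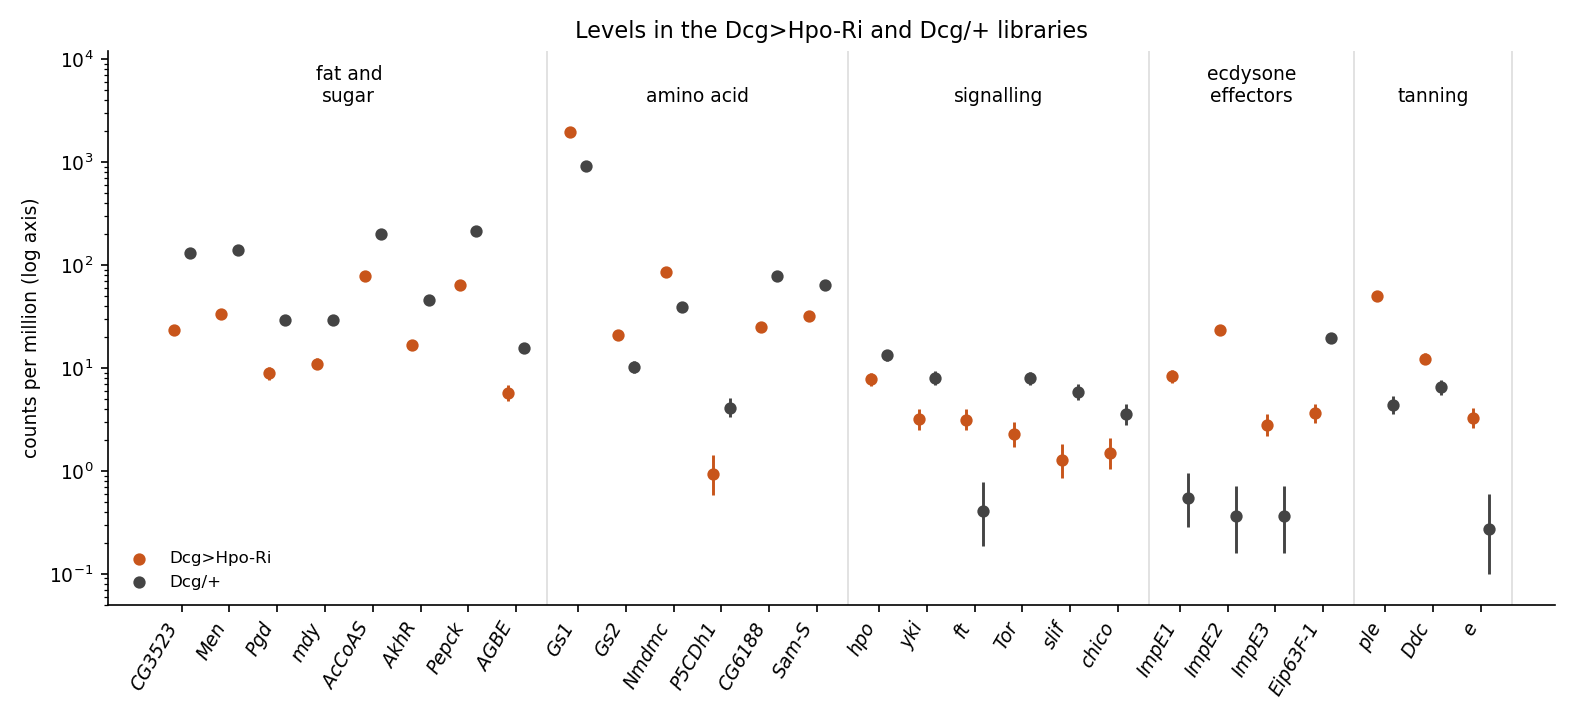
Levels of 27 genes in CPM (log axis), Dcg>Hpo-Ri in orange on the left and Dcg/+ in grey on the right of each pair, with exact Poisson 95% intervals that are shorter than the point where not visible. The 8 genes of the fat and sugar group were taken from those called lower, and ACC, ATPCL and Zw, which were near the control, are not shown. ImpE1, ImpE2, ImpE3, ple and e are higher in Dcg>Hpo-Ri.

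Nutrient signalling showed calls in single genes. Of 30 measured insulin and TOR genes, 3 were called lower and 2 higher, close to the background of 5.94% and 5.23%. slif, an amino acid transporter through which the fat body senses amino acids, had 30 counts in Dcg>Hpo-Ri and 129 in Dcg/+, a ratio of 0.217 (0.141 to 0.324). The kinase gene Tor had 53 and 173, a ratio of 0.285 (0.206 to 0.390), and chico, the insulin receptor substrate, 35 and 78. On the higher side, Pi3K21B, a regulatory subunit of the PI3 kinase, had 360 and 163 counts, a ratio of 2.06 (1.71 to 2.49) that TMM brings under the threshold, and conv had 51 and 19. InR, the insulin receptor, and Akt1 were at 0.999 (0.888 to 1.12) and 1.02 (0.898 to 1.16). Ilp6, the insulin-like peptide that the fat body secretes, had 10948 and 6173 counts, a ratio of 1.65 (1.60 to 1.71), and Thor, which holds back translation when TOR is low, was at 0.794 (0.777 to 0.812).

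Genes of the ribosome and of translation factors were seldom called (background 5.23% higher and 5.94% lower). Cytosolic ribosomal protein genes held 19.4% of the counts in Dcg>Hpo-Ri and 16.5% in Dcg/+, a ratio of the sums of 1.18, with a median log2 ratio of 0.19 over 92 genes. RpL32 had 62082 and 49156 counts, a ratio of 1.18 (1.16 to 1.19). RpS19b, a germline paralogue, was the only one called, with 133 counts in Dcg>Hpo-Ri and 314 in Dcg/+. No mitochondrial ribosomal protein gene of 74 was called, nor any of 27 ribosome biogenesis genes, in which nop5 and Nop60B came nearest, both at 1.96. Of 52 translation factor genes 1 was called lower, and the list held 1.44% of the counts in Dcg>Hpo-Ri and 1.51% in Dcg/+, a ratio of the sums of 0.952 (0.948 to 0.957). Of 31 aminoacyl-tRNA synthetase genes 2 were called lower, close to the background, with a ratio of the sums of 1.02 (0.992 to 1.05). Of 47 proteasome genes 1 was called lower, and of 30 autophagy genes none.

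Among ecdysone genes the receptors and early factors were called about as often as all genes (background 5.23% higher and 5.94% lower). Of 15 nuclear receptors and early response factors, 1 was called higher and 1 lower. EcR, the receptor, was at 0.591 (0.545 to 0.640), its partner usp at 0.663 (0.527 to 0.832), Eip74EF at 0.662 (0.623 to 0.704) and br, the pupal specifier, at 1.21 (1.16 to 1.25). Hr4, a receptor-like repressor, had 1691 counts in Dcg>Hpo-Ri and 785 in Dcg/+, a ratio of 2.01 (1.84 to 2.19), which becomes 1.89 with TMM scaling. vri, a bZIP factor, had 73 and 252, a ratio of 0.270 (0.205 to 0.352).

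Among 12 effectors 4 were called higher and 1 lower (background 5.23% and 5.94%). ImpE1, ImpE2 and ImpE3, genes that ecdysone induces in imaginal discs, had 194, 546 and 66 counts in Dcg>Hpo-Ri against 12, 8 and 8 in Dcg/+. Their ratios were 15.1 (8.43 to 29.7), 63.6 (32.0 to 148) and 7.69 (3.68 to 18.5). ImpE1, ImpE2 and ImpE3 passed the filter only through Dcg>Hpo-Ri, so the share of calls is no evidence that effectors changed more. Eip63E, a cyclin-dependent kinase gene, had 1717 and 681 counts and was higher, and Eip63F-1, a calcium-binding protein gene, had 85 and 423 and was lower. The 3 measured genes of the 71E puff were all called lower. In the fat body Fbp1, a receptor for storage proteins that ecdysone induces, had 145629 and 249683 counts, a ratio of 0.543 (0.540 to 0.547). Of the genes of hormone synthesis, dib, a steroid hydroxylase, had 19 and 72 counts and was lower, Ptth, the brain peptide that triggers synthesis, had 116 and 41 and was higher, and Cyp6t3 had 192 and 82 and was higher.

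Most of the cuticle protein genes measured were called lower. The table lists 131 cuticle protein genes and 17 were measured, of which 11 were called lower and 1 higher (background 5.94% and 5.23%). Their median log2 ratio was -1.91. Lcp3, a larval cuticle protein gene, had 179 counts in Dcg>Hpo-Ri and 2789 in Dcg/+, a ratio of 0.0598 (0.0511 to 0.0696), and Lcp1 had 3286 and 12189, a ratio of 0.251 (0.242 to 0.261). In Dcg>Hpo, Lcp1 had 66505 counts, more than in either of them. Cpr65Ec was the exception, with 55 and 3 counts. The fat body itself is not a cuticle-forming tissue, and Cpr49Ac, with 81396 and 70206 counts, was near the control at 1.08 (1.07 to 1.09).

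Of 12 measured genes of trachea and epidermis 5 were called higher and 0 lower (background 5.23% and 5.94%), and the list held 0.233% of the counts in Dcg>Hpo-Ri and 0.240% in Dcg/+. ple, the tyrosine hydroxylase that starts dopamine and tanning synthesis, had 1184 counts in Dcg>Hpo-Ri and 96 in Dcg/+, a ratio of 11.5 (9.33 to 14.3). The next enzyme, Ddc, had 289 and 142, a ratio of 1.90 (1.55 to 2.33), and ebony (e), which conjugates dopamine to beta-alanine, had 77 and 6. vvl, a transcription factor of trachea and epidermis, had 110 and 18 counts, the chitinase gene Cht2 106 and 37, and Idgf3, a secreted chitinase-like protein gene, 5009 and 1904. The genes e, vvl and Cht2 passed the filter only through Dcg>Hpo-Ri. Outside this list, Pu, which makes the cofactor of tyrosine hydroxylase and the red eye pigments, had 6201 and 12157 counts, a ratio of 0.475 (0.461 to 0.490). The eye pigment transporter genes also lay apart, with bw at 253 and 1485 counts, a ratio of 0.159 (0.138 to 0.181), and white (w), which is also the usual marker gene of fly transgenes, at 780 and 123, a ratio of 5.91 (4.88 to 7.21).

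Immune effector genes had calls in both directions. Of 7 measured antimicrobial peptide genes 2 were called higher and 3 lower (4 by TMM), where 5.23% and 5.94% of all genes were. DptB, a diptericin, had 47 counts in Dcg>Hpo-Ri and 407 in Dcg/+, a ratio of 0.108 (0.0778 to 0.146), and AttC, an attacin, had 381 and 738, a ratio of 0.481 (0.424 to 0.545). Drs, the other lower member, had 19840 counts in Dcg>Hpo-Ri and 41052 in Dcg/+. Mtk, metchnikowin, was at 0.521 (0.458 to 0.591), and CG43236, a Metchnikowin-like gene outside the list, had 3428 and 7722 counts. Against them stood Dro and Drsl5 above. Among 9 bomanins and other immune-induced peptides 1 was called higher and 3 lower. The lower ones were the bomanins IM2, with 9 counts in Dcg>Hpo-Ri and 54 in Dcg/+, and IM3, with 26 and 105, and IM14, listed as Dso2, with 26 and 65. All of these lower genes passed the filter only through Dcg/+, and the ratio of the sums of the list was 1.02. IM18 had 906 and 129 counts and was higher, although its counts were identical with those of the row CG10332, so that which of the 2 genes gave the reads cannot be told.

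Of 35 genes of Toll, Imd and recognition, 2 were called higher and 3 lower, close to the background of 5.23% and 5.94%. PGRP-LA, a recognition protein gene, had 95 counts in Dcg>Hpo-Ri and 10 in Dcg/+, a ratio of 8.85 (4.61 to 19.1), and Tl, the Toll receptor, 58 and 19. spz, the Toll ligand, had 279 and 685, a ratio of 0.379 (0.329 to 0.437), SPE, the protease that activates it, 90 and 208, and key, a subunit of the IKK complex, 14 and 51. The transcription factors were not called, Rel standing at 1.28 (1.16 to 1.41) and dl at 1.36 (1.13 to 1.65). Of 11 genes of the Turandot and JAK/STAT list, TotA, a stress protein secreted by the fat body, had 7470 and 18592 counts, a ratio of 0.374 (0.364 to 0.385), and TotC and Tep1 were lower as well.

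Among 26 heat shock genes 5 were called higher and none lower (background 5.23% and 5.94%), and 4 of these are near-identical copies of Hsp70 on 3R. The copies Hsp70Ba, Hsp70Bbb and Hsp70Bc had 277, 118 and 138 counts in Dcg>Hpo-Ri and 5, 1 and 1 in Dcg/+, and the reads of such copies may have been divided among them arbitrarily. Together with Hsp70Bb they had 943 and 12 counts. All of these copies passed the filter only through Dcg>Hpo-Ri, so the share of calls is no evidence that heat shock genes changed more. The small heat shock genes, which ecdysone also induces in development, were abundant and less changed, with Hsp27 at 1.87 (1.83 to 1.91), Hsp26 at 1.75 (1.64 to 1.86) and Hsp23 at 1.38 (1.36 to 1.39). Hsp83, the fly Hsp90 gene, was at 1.53 (1.48 to 1.57). Hsp67Ba had 130 and 53 counts and was called higher.

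Detoxification genes had calls on both sides. Of 48 cytochrome P450 genes 6 were called higher and 8 lower by library totals (background 5.23% and 5.94%), or 6 and 11 by TMM (background 4.29% and 7.12%). Cyp6d5 had 3015 counts in Dcg>Hpo-Ri and 22756 in Dcg/+, a ratio of 0.123 (0.119 to 0.128). It had 303 in Dcg>Hpo, so its level was highest in the control library. Neighbouring members of 1 cluster differed in direction, Cyp4p1 having 44 and 336 counts and Cyp4p2 139 and none. Cyp309a1 had 11361 and 4041 counts, a ratio of 2.62 (2.53 to 2.72), and Cyp6g1, the gene of insecticide resistance, was at 1.90 (1.84 to 1.96). Of 23 glutathione transferases 3 were higher and 2 lower, with GstE3 at 7470 and 2679 counts and GstE7 and GstE8, of the same cluster, at 533 and 1295 and at 167 and 447. Among oxidative stress genes 3 peroxiredoxins of 25 members were called lower, Jafrac1 with 323 and 874 counts among them, and Cat, the catalase, was at 0.599 (0.588 to 0.611). MtnA, a metallothionein, had 1008 and 3810 counts, a ratio of 0.247 (0.230 to 0.264).

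Among secretory and matrix genes of the fat body the calls were in single genes (background 5.23% higher and 5.94% lower). Of 32 genes of the endoplasmic reticulum and secretion 2 were called lower, TRAM, a translocon protein, with 365 counts in Dcg>Hpo-Ri and 1054 in Dcg/+, and Sec24CD, a coat protein, with 382 and 731. Of 16 collagen and basement membrane genes, Cg25C, a chain of collagen IV, had 2715 and 1262 counts, which put it just at the threshold (interval of the ratio 1.87 to 2.14), and at 1.88 with TMM. vkg, the other chain of the same collagen, was at 0.670 (0.609 to 0.737), so the 2 chains lay on opposite sides of the control. The serum protein Lsp1gamma had 247413 and 438571 counts, a ratio of 0.526 (0.523 to 0.528), and 0.494 with TMM, while Lsp1alpha and Lsp1beta were at 1.07 and 1.19.

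Replication-dependent histone genes gave the most calls of any list, but few of them are separate measurements. Of 37 measured rows 23 were called higher and 5 lower (background 5.23% and 5.94%). All 23 were copies of His2B, at ratios of 2.48 to 2.94, and 15 of them shared all their counts with another row. The 5 lower rows were copies of His1, such as His1:CG33855 with 27 counts in Dcg>Hpo-Ri and 75 in Dcg/+. The mRNAs of these genes normally lack a poly(A) tail, which the kit primes on. His2Av, a variant histone gene whose mRNA does carry one, was at 1.20 (1.05 to 1.37). Of 39 cell cycle genes 1 was higher and 2 lower, Mcm3, a subunit of the replicative helicase, having 100 and 40 counts and CycD 18 and 66. PCNA, the replication clamp, was at 1.46 (1.17 to 1.83).

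Genes of tissues other than fat were measured in both libraries, and they did not move in 1 direction. The muscle list had 8 of 20 genes called lower (9 by TMM) and none higher (background 5.94% and 5.23%), and it held 0.0349% of the counts in Dcg>Hpo-Ri, 0.229% in Dcg>Hpo and 0.0460% in Dcg/+. Act57B, a larval muscle actin, had 124 and 582 counts and Mlc2, a myosin light chain, 338 and 668, whereas Act87E, another muscle actin, was at 1.30 (1.07 to 1.58) and Mhc, the myosin heavy chain, at 0.569 (0.486 to 0.664). Gut enzymes had 10 higher and 5 lower of 20 measured (background 5.23% and 5.94%), and held 0.0304% and 0.0205%. Several of them, such as LysB and Jon99Cii, passed the filter only through the library in which they were high. Their share of calls is therefore no evidence that gut genes changed more. The trypsin gene deltaTry had 1190 and 306 counts, the lysozyme gene LysB 154 and 4, and the proteases Jon65Aiv 759 and 185 and Jon99Cii 2 and 161, so that proteases of 1 family lay on both sides. Malpighian tubule genes were lower in 3 of 5 cases (background 5.94%). Among them NaPi-T, with 14 and 153 counts, and Oatp58Da, with 21 and 61, passed the filter only through Dcg/+. The share of calls in this list is therefore no evidence that tubule genes changed more. What part stray tissue had in these values was not tested.

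In the blood cell lists the calls were in single genes (background 5.23% higher and 5.94% lower). Of 12 plasmatocyte genes 1 was called higher, the phagocytosis receptor NimC1 with 66 counts in Dcg>Hpo-Ri and 27 in Dcg/+, and the list held 0.0783% and 0.0815%. The haemocyte genes Hml and Pxn were at 0.690 (0.582 to 0.816) and 0.823 (0.731 to 0.927). Of 6 crystal cell and lamellocyte genes 5 lay below the control, with a ratio of the sums of 0.766 (0.738 to 0.794), and 1 was called lower, the zinc finger gene peb with 18 and 104 counts. PPO1, a prophenoloxidase of crystal cells, was at 0.557 (0.526 to 0.590). Of 11 measured imaginal disc genes ara, an Iroquois homeobox gene, had 68 and 1 counts and hth, a homeobox gene of proximal fates, 1367 and 537, both higher. Dcg>Hpo had 71 and 1332 counts of these genes in the same order.

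Male germ line genes were present in both libraries, and few of them were called. Of 46 measured testis genes 1 was called higher and 2 lower (background 5.23% and 5.94%). The list held 0.158% of the counts in Dcg>Hpo-Ri, only 0.00922% in Dcg>Hpo, and 0.141% in Dcg/+. dj, a sperm tail gene, had 3573 counts in Dcg>Hpo-Ri, 69 in Dcg>Hpo and 2858 in Dcg/+. The sex of the animals is not given in the sources used here. roX1, the noncoding RNA of male dosage compensation, had 3266 and 7467 counts, a ratio of 0.408 (0.391 to 0.425), and Yp3, a yolk protein gene that adult females express, had 3918 and 1452, a ratio of 2.51 (2.37 to 2.67). The other yolk protein genes Yp1 and Yp2 had 52 and 37 counts in Dcg>Hpo-Ri and 28 and 52 in Dcg/+.

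Of 58 lists in all, 7 had no call, 8 had only higher calls, 22 only lower ones and 21 both. Cell death genes were among those with higher calls alone, with hid (listed as W) at 131 counts in Dcg>Hpo-Ri and 37 in Dcg/+, and debcl, a Bcl-2 relative, at 326 and 136. So were the serpins, through Spn43Aa with 142 and 7 counts, a ratio of 18.9 (8.94 to 47.9), while the other 11 measured serpins lay between 1.03 (Spn43Ab) and 1.66 (Spn88Ea).

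Most called genes, 771 of 978, stood in no list, and 536 had only a systematic symbol. Such symbols made up 54.1% of the higher genes and 55.4% of the lower ones, close to the 50.9% among all measured genes. By kind, 406 of 8354 protein-coding genes were called higher (4.86%) and 492 lower (5.89%). Of 138 long noncoding RNA genes 24 were higher (17.4%) and 14 lower (10.1%), a larger share on both sides. Of 6 small nucleolar RNA genes 5 were called higher, such as snoRNA:U3:54Aa with 651 counts in Dcg>Hpo-Ri and 267 in Dcg/+, and of 4 ribosomal RNA pseudogenes 3. Neither kind is normally polyadenylated, and the higher ribosomal share of the Dcg>Hpo-Ri library given above moved with both; its part in these values was not tested.

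By chromosome arm the share called higher ran from 4.69% on 3R to 6.55% on 2L, where 111 of 1694 genes were higher, and the share called lower from 4.78% on the X to 6.64% on 3L, leaving aside the 61 genes of chromosome 4. The histone cluster lies on 2L and the runs of CG12310 and Eig71Ee on 3L. Genes that overlap another annotated gene, whose counts could hold reads of both, made up 43.3% of the called genes and 53.1% of the measured ones. Identical counts in all 3 libraries were shared by 115 measured genes in 49 groups, of which 23 were called higher and 6 lower.

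**Figure D5:**
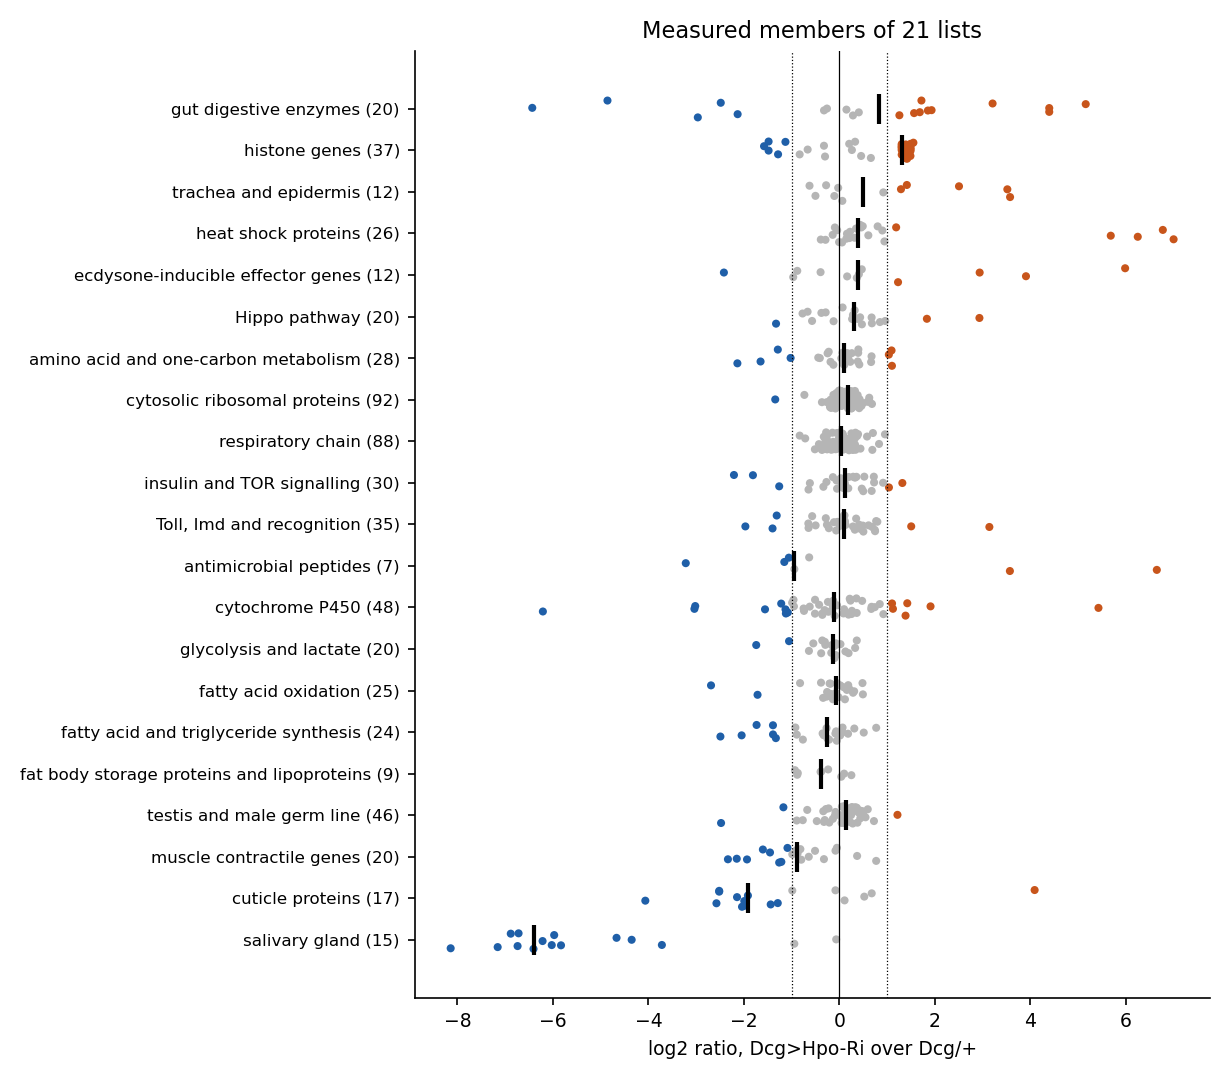
The log2 ratio of Dcg>Hpo-Ri over Dcg/+ (library totals) for the measured members of 21 lists, with the number measured in brackets, coloured as called higher (orange), lower (blue) or not called (grey). Black bars are medians, dotted lines mark 2-fold, and members without a count in 1 library are drawn at their bound. The salivary gland list lies farthest below the control and the ribosomal and respiratory chain lists lie close around it.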

How the data were processed

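Larval fat body RNA of Dcg>Hpo-Ri, Dcg>Hpo and Dcg/+ animals was measured in 1 library per genotype. Libraries were made with a QuantSeq kit, which reads the 3′ ends of mRNAs, a service company (ebiogen) did the analysis, and the build was dm6. The authors deposited whole-number counts per gene, without a filter. Aligner, counter and strandedness are not given in the sources used here.

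Counts were divided by library totals. Ratios carry exact Clopper-Pearson 95% intervals (scipy 1.17.1), which cover counting error alone, as PCR copies of 1 molecule are counted apart. A gene was measured at 50 counts in either library and called at 2-fold with an interval that excludes 1, and a count of 0 was given a floor of 3. No test was made. TMM factors (edgeR 4.0.16) and median-of-ratios factors (DESeq2 1.42.0) served only as alternative scalings. The other alternatives changed the filter, the threshold, the library total and the handling of overlapping genes; those without the ribosomal rows and with shared counts taken once were chosen after seeing the data. The steps were checked on simulated counts. Python 3.11.15, numpy 2.4.6, pandas 2.3.3, matplotlib 3.10.9 and R 4.3.3 were used.

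Symbols were matched to RefSeq for 16279 of 16509 rows, which gave positions and kinds. The genes compared and the 58 function lists were chosen with earlier results of these data known, so no list is independent evidence. Named genes follow a rule: hpo, the 5 genes per abundance class and direction whose interval bound lies farthest from 1, in each list the 4 members that changed most, and members of runs of 4 or more neighbours called in 1 direction. Other genes were named after their values were seen: ACC, ATPCL, AcCoAS, Act87E, AdSL, Akt1, AttC, CG10332, CG10924, CG11714, CG3714, CG43236, Cat, Cpr49Ac, CrebA, Cyp309a1, Cyp6g1, Ddc, Desat1, EcR, Eip63E, Eip74EF, Gs2, HLH106, His2Av, Hsp23, Hsp26, Hsp27, Hsp67Ba, Hsp83, Idgf3, Ilp6, InR, Jon25Bi, Jon25Bii, Jon65Aiv, Lsd-2, Lsp1alpha, Lsp1beta, Mhc, Mlc2, Mob2, Mtk, Mtpalpha, P5cr-2, PCNA, Pi3K21B, Pu, Pxn, Rel, RpL32, SPE, Sam-S, Sgs1, Sgs8, Thor, Zw, br, bw, chrb, dj, dl, dm, fkh, hoe2, sage, sd, snoRNA:U3:54Aa, th, usp, w and wts.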

Additional observations from a re-analysis of the deposited data

How the results depend on the processing

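Each other scaling multiplies every ratio by 1 factor. Ratios close to 1 can therefore change sides, such as that of Akt1, at 1.02 by library totals and 0.960 by TMM. TMM factors of the 2 libraries, or of all 3, gave 376 higher and 624 lower calls, median-of-ratios factors 378 and 617, totals without the salivary gland list 384 and 609, totals without the 10 most abundant genes 491 and 497, and totals without the ribosomal rows 497 and 491, against 458 and 520 by library totals. The split between the directions therefore depends on the scaling. Of 282 genes named by the rule that have a ratio, 3 lost their call under at least 1 of 3 scalings (CR41602, Cg25C and Hr4) and 5 gained one (CycE, Lsp1gamma, MtnE, Prx3 and Ubx). Of 116 counts per list, 99 were the same number under these 3 scalings, 16 moved by 1 and 1 by more, and all 8 counts per abundance class stayed within 1.5 times.

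The filter and the threshold moved the counts by more. A minimum of 10 counts gave 900 higher and 1047 lower, a minimum of 200 gave 201 and 208, and no filter with 1 added to the scaled counts gave 1502 and 2107. A threshold of 1.5-fold gave 1332 and 1121, one of 3-fold 164 and 248, and an interval bound beyond 2-fold 232 and 300. Without genes that overlap another gene the calls were 254 and 292. No paired analysis was possible because each genotype had 1 library, and for the same reason no library could be left out. Depth limits the rarest class, where a gene at 50 counts has a wide interval.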
